A study of Mus musculus with 8 samples.

Results

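Insulin makes fat cells take up glucose and stop releasing fatty acids. The hormone binds its receptor, docking proteins pass the signal to phosphoinositide 3-kinase and then to the kinase Akt, and Akt acts on a Rab GTPase-activating protein that otherwise holds vesicles with the glucose transporter GLUT4 inside the cell. A second branch runs through a phosphodiesterase that breaks down cyclic AMP and so restrains lipolysis. White adipose tissue (WAT) is a main insulin-responsive tissue in which both branches operate. The levels of 9 genes of these steps were described in inguinal (ING) WAT: *Insr*, *Irs1*, *Irs2*, *Pik3r1*, *Akt1*, *Akt2*, *Tbc1d4*, *Slc2a4* and *Pde3b*. They were chosen by name, as the core of insulin signalling and insulin-stimulated glucose uptake, with earlier results of these data known. They are 9 of the 38345 genes for which a sum could be formed. All 9 were found and all 9 passed the filter on low values, a mean of at least 1 FPKM over the mice, which 16073 genes passed.

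ING WAT was sampled from C57BL/6j mice at postnatal day 21 (PN21), at weaning, and at PN98, in young adulthood, with 4 mice per age. The PN21 mice were m1, m49, m138 and m145, and the PN98 mice were m35, m106, m114 and m125. The labels name no transgene or deletion. Per the study's methods, the breeders were C57BL/6jOlaHsd, and litters held males and females. The females were killed at PN21. The males were weaned at PN21 and kept on the synthetic AIN93G diet of the dams until PN42. They then received AIN93M or a western style diet. Food was strongly limited in the night before dissection, so that the mice were fasted. The labels give neither the diet nor the sex of the sequenced mice, so age and diet after PN42 cannot be told apart here. The Y-linked gene *Ddx3y* lay between 18.1 and 22.1 FPKM at PN21 and between 19.9 and 25.9 FPKM at PN98, and *Xist* was at most 0.832 FPKM in any mouse. The tissue was sequenced in bulk, so fewer cells of a type and less RNA per cell cannot be told apart.

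Levels are given as FPKM (fragments scaled to the length of the transcript and to the mapped fragments of the library), summed over the transcripts of a gene. This unit is per length, so that levels can be compared between genes. Adjusted p is the Benjamini-Hochberg value over all 16073 genes tested with limma on log2(FPKM + 1), and a positive log2 fold change means a higher value at PN98. The files hold no read counts, so that the depth of the libraries is unknown. All genes tested had a median log2 fold change of −0.21 on the FPKM scale as deposited. Scaling each mouse by its median ratio to a reference over genes (median-ratio scaling) moved this to −0.02, and scaling each mouse to the same sum over nuclear genes (nuclear-sum scaling) to −0.0086. Calls at an adjusted p under 0.05 numbered 378 higher and 473 lower at PN98, 758 and 463 after median-ratio scaling, and 509 and 271 after nuclear-sum scaling. Pearson correlations of log2(FPKM + 1) across genes lay between 0.886 and 0.907 for pairs of PN21 mice and between 0.819 and 0.915 for pairs of PN98 mice. PN98 mouse m35 stood apart: without it 3579 genes passed the test, against 851 with all 8 mice.

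Markers of the cell types a fat depot can hold were summed in each mouse. White adipocyte markers summed to 15498 to 31644 FPKM at PN21 and 39473 to 58169 FPKM at PN98, and all 8 markers had a higher mean at PN98, 2 of which passed the test. Skeletal muscle markers summed to 7.86 to 423 FPKM at PN21 and 359 to 2321 FPKM at PN98, with 7 of 7 means higher and 1 passing. Brown adipocyte markers, with 4 of 6 means lower and none passing, summed to 2183 to 4734 FPKM at PN21 and 311 to 3480 FPKM at PN98, and the lowest sum was that of m35. Lymphocyte markers, with 8 of 8 means lower and none passing the test from limma, summed to 408 to 965 FPKM at PN21. At PN98 the lymphocyte sum was 889 FPKM in m35 against 16.3 to 172 FPKM in the other 3 mice. Adipose progenitor markers lay between 220 and 406 FPKM at PN21 and between 168 and 322 FPKM at PN98, with 5 of 6 means lower and 1 passing. Macrophage markers, with 4 of 5 means lower, lay between 68.6 and 105.6 FPKM at PN21 and between 41.0 and 133 FPKM at PN98, and endothelial markers, also with 4 of 5 means lower, between 149.9 and 220 FPKM and between 69.8 and 246 FPKM, with none passing the test in either list. Markers of mammary and skin epithelium summed to 2.33 to 28.0 FPKM at PN21 and 0.211 to 1.36 FPKM at PN98, with 6 of 6 means lower and 1 passing, and *Krt14* was listed at 0 in all 4 PN98 mice. The part of these cell types in the levels of the 9 genes was not tested.

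*Pde3b* was the single one of the 9 genes that passed the test of age, and it rose. *Irs2*, *Insr*, *Akt2* and *Irs1* had positive log2 fold changes and *Slc2a4*, *Pik3r1*, *Akt1* and *Tbc1d4* negative ones, with no adjusted p under 0.05. The median of the 9 log2 fold changes was 0.17, against −0.21 over all genes tested. The 1 gene of 9 called compares with 5.29% of all genes tested in either direction, 2.35% called higher and 2.94% called lower. In 4 of the 9 genes, *Insr*, *Irs2*, *Pde3b* and *Tbc1d4*, the values of the ages did not overlap, against 16.0% of all genes tested. Because the 9 genes were chosen with earlier results known, these comparisons with all genes are descriptions only.

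**Figure D1:**
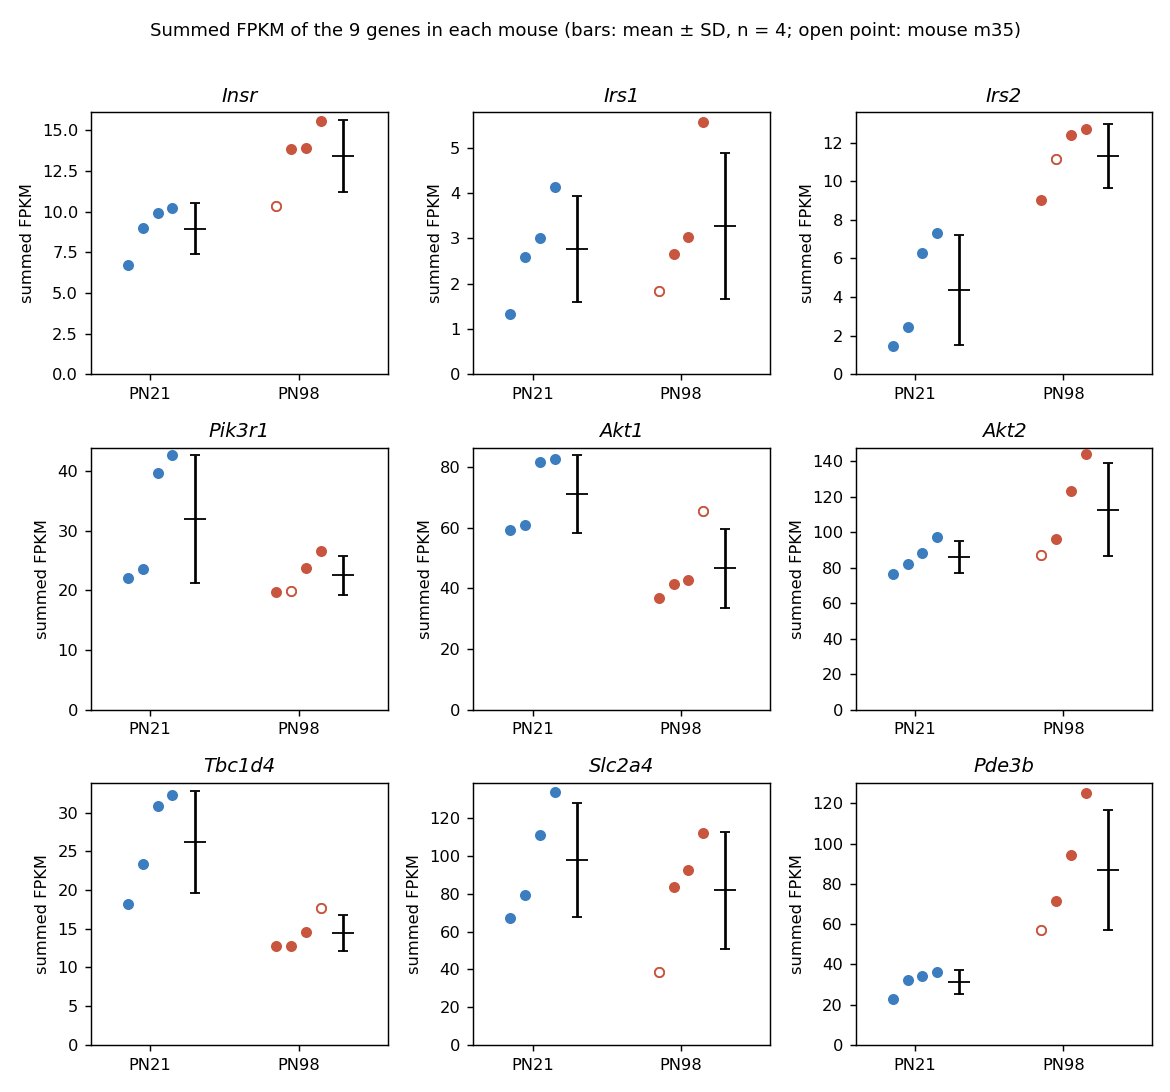
Each panel plots the summed FPKM (y axis, from 0) of 1 gene in the 4 PN21 mice (blue) and the 4 PN98 mice (red), with the mean ± SD beside the points, and mouse m35 is drawn open. *Pde3b* in the 4 PN98 mice lies between 57.0 and 125.01 FPKM, above all PN21 mice, whereas m35 holds the lowest *Slc2a4* value, 38.8 FPKM.

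The receptor gene *Insr* (chromosome 8, 3122061 to 3279617, minus strand, GRCm38) was measured at 9.001, 10.23, 9.88 and 6.71 FPKM at PN21. At PN98 it was measured at 10.34 FPKM in m35, 15.6 in m106, 13.9 in m114 and 13.9 in m125. All PN98 values were above all PN21 values, with m35 next to the highest PN21 mouse. The means were 8.96 ± 1.58 FPKM (SD, n = 4) and 13.4 ± 2.21 FPKM (SD, n = 4), the log2 fold change was 0.54 (SE, standard error, 0.19) and the adjusted p from limma was 0.127. Without m35 the adjusted p was 0.0376 with a log2 fold change of 0.65. Leaving out any other mouse gave an adjusted p from limma between 0.172 and 0.276. Median-ratio scaling gave a log2 fold change of 0.75 (adjusted p from limma = 0.0945) and nuclear-sum scaling 0.76 (adjusted p = 0.123). A single protein-coding transcript of 1372 codons held all of the sum to within rounding, so that receptor forms with and without the alternatively spliced exon are not separated in these values.

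The docking proteins *Irs1* and *Irs2* are close relatives that bind the activated receptor and recruit phosphoinositide 3-kinase. The stretches before their transcription start sites are shown because the genes have the same role and their levels are set against each other within each mouse. *Irs1* lies on chromosome 1 (82233101 to 82291416, minus strand) and *Irs2* on chromosome 8 (10984681 to 11008458, minus strand). The sequences are the 250 bases before the RefSeq start site in GRCm38.p6, 5′ to 3′ on the gene's strand, chr1:82291440-82291689 for *Irs1* and chr8:11008930-11009179 for *Irs2*. Capitals mark CACGTG, the E-box letters, and TGTTTTG, the letters known as an insulin response element in the *Irs2* promoter.
Irs1: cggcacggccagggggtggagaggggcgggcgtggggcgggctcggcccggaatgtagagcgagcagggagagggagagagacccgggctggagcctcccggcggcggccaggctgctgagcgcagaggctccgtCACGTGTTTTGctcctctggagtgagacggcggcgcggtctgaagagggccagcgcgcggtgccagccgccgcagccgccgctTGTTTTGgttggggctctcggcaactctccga
Irs2: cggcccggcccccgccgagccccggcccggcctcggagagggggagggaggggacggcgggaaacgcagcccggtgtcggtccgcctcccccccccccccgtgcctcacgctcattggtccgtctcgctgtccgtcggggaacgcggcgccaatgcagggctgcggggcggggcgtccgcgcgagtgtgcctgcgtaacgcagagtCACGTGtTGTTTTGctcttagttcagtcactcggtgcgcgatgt
Both windows held CACGTG followed closely by TGTTTTG. In *Irs1* the E-box letters began 115 bases and TGTTTTG 111 and 32 bases before the start, and the first TGTTTTG shared 2 letters with the E-box. In *Irs2* they began 44 and 37 bases before the start, with no shared letter. These distances hold for the RefSeq start only. The *Irs2* window begins at 11008930, but the gene bounds given above end at 11008458, which puts the letters farther before the start. For *Irs1* these 2 positions are closer, 82291440 and 82291416. The motifs were chosen after the sequences were read, and both strands were searched. Of 32851 mouse promoter windows of this length, 6.02% held CACGTG, 5.56% held TGTTTTG or its reverse complement, and 0.295% held both. Windows were listed for 6 of the 9 genes, 11 windows in all, and the 2 windows shown were the ones that held either motif. *Insr*, *Slc2a4* and *Pde3b* have no window in the table. A match of letters is a description and does not show that a factor is bound.

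*Irs1* was measured at 4.13, 2.59, 3.02 and 1.33 FPKM in m1, m49, m138 and m145 at PN21. PN98 values were 1.84, 3.03, 5.56 and 2.66 FPKM in m35, m106, m114 and m125. The values of the ages overlapped over most of their range. The log2 fold change was 0.17 (SE 0.32, 95% interval −0.57 to 0.90, adjusted p from limma = 0.750), and its sign changed without m145 (−0.044) and without m114 (−0.061).

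*Irs2* was measured at 7.32, 1.49, 6.27 and 2.42 FPKM at PN21, a spread wider than that between the PN98 mice. The PN98 mice had 11.2, 12.4, 9.05 and 12.7 FPKM. Every PN98 value was above every PN21 value, with means of 11.3 ± 1.66 FPKM (SD, n = 4) and 4.38 ± 2.85 FPKM (SD, n = 4). Between the ages the log2 fold change was 1.36 (SE 0.39, 95% interval 0.47 to 2.25), place 309 of 16073 from the highest, and the adjusted p from limma was 0.0832. With median-ratio scaling it was 1.56 with an adjusted p of 0.0499 from limma, and with nuclear-sum scaling 1.55 with an adjusted p of 0.0851.

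The levels of the docking proteins relative to each other were compared within each mouse, where the scaling of a library has no effect other than through the pseudocount. The log2 ratio of *Irs1* to *Irs2*, each with 1 FPKM added, was −0.70, 0.53, −0.86 and −0.56 at PN21. It was −2.10, −1.73, −0.61 and −1.90 at PN98, where m114 lay inside the PN21 range and the other 3 mice below it. The difference between the ages was −1.19 (two-sided exact permutation test, p = 0.0857, adjusted over the 8 ratios tested 0.171). The third docking protein gene of rodent fat, *Irs3*, differed by 0.74 on the log2 scale (SE 0.22, adjusted p from limma = 0.0885). *Irs4* was listed at 0 in all 8 mice.

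Phosphoinositide 3-kinase consists of a regulatory and a catalytic subunit, and *Pik3r1* (chromosome 13, 101680563 to 101768217, minus strand) encodes the main regulatory subunits. It was measured at 23.5, 42.7, 39.65 and 22.1 FPKM at PN21. At the later age the values were 19.9, 19.8, 26.7 and 23.7 FPKM. The PN21 mice fell into a pair near the PN98 values and a pair well above them. On the log2 scale the fold change was −0.44 (SE 0.25, 95% interval −1.02 to 0.14, adjusted p from limma = 0.280), and it moved to −0.22 after median-ratio and −0.20 after nuclear-sum scaling. The whole sum came from 2 transcripts, *Pik3r1-202* of 724 codons, the p85α form, and *Pik3r1-201* of 454 codons, the short p55α form.

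The short *Pik3r1* form was measured at 8.67, 20.9, 10.3 and 13.3 FPKM at PN21. In the PN98 mice it reached 8.71, 8.76, 6.41 and 7.42 FPKM. It held 25.9% to 60.0% of the sum of a mouse at PN21 and 24.05% to 44.2% at PN98. For this transcript the log2 fold change on log2(FPKM) was −0.69 (SE 0.30, adjusted p over transcripts from limma = 0.232), and for the long form it was −0.26 (SE 0.41). The log2 ratio of *Pik3r1* to the catalytic subunit gene *Pik3ca* within a mouse differed by −0.37 between the ages (exact permutation test, p = 0.286, adjusted 0.381).

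Akt is the kinase through which most metabolic actions of insulin pass, and *Akt2* is the form tied most closely to glucose uptake. *Akt1* (chromosome 12, 112653821 to 112674884, minus strand) was measured at 82.5, 59.2, 81.6 and 60.7 FPKM at PN21. At PN98 it was measured at 65.6 FPKM in m35 and at 42.7, 41.3 and 36.7 FPKM in m106, m114 and m125. The PN98 values were below all PN21 values other than in m35. The log2 fold change was −0.62 (SE 0.22, adjusted p from limma = 0.136), and without m35 it was −0.79 with an adjusted p of 0.0250. Leaving out any other mouse gave an adjusted p from limma between 0.181 and 0.275. With nuclear-sum scaling the log2 fold change was −0.38 with an adjusted p of 0.407.

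*Akt2* (chromosome 7, 27591552 to 27640826, plus strand) was measured at 97.3, 88.2, 82.4 and 76.5 FPKM at PN21. PN98 values were 87.2, 123, 96.2 and 144 FPKM, and m35 and m114 lay inside the PN21 range. Between the ages the log2 fold change was 0.36 (SE 0.19, 95% interval −0.08 to 0.81, adjusted p from limma = 0.251), and 0.59 and 0.61 with the other scalings. *Akt2* had the highest mean of the 9 genes at PN98, 113 ± 26.1 FPKM (SD, n = 4), and the second highest at PN21, 86.1 ± 8.88 FPKM (SD, n = 4).

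Within each mouse *Akt2* exceeded *Akt1*. The log2 ratio of *Akt2* to *Akt1* was 0.23, 0.57, 0.01 and 0.33 at PN21 and 0.40, 1.51, 1.20 and 1.95 at PN98. The ratio was above every PN21 mouse in 3 of the PN98 mice, and m35 lay inside the PN21 range. The difference was 0.98 (two-sided exact permutation test, p = 0.0571, adjusted 0.152). *Akt1-201* of 480 codons held 61.9% to 94.9% of the *Akt1* sum at PN21, the upper value being that of m145, in which the shorter coding transcript *Akt1-205* was near 0.

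*Tbc1d4* (AS160, chromosome 14, 101442360 to 101609191, minus strand) encodes the Rab GTPase-activating protein that Akt phosphorylates to release GLUT4 vesicles. It was measured at 23.4, 32.3, 30.9 and 18.2 FPKM at PN21. The PN98 mice had 17.7, 12.8, 14.5 and 12.8 FPKM. Every PN98 value was below every PN21 value, with m35 closest. On the log2 scale the fold change was −0.79 (SE 0.22, adjusted p from limma = 0.0737), and without m35 it was −0.89 with an adjusted p of 0.0313. Leaving out any other mouse gave an adjusted p from limma between 0.0557 and 0.187. Median-ratio scaling gave *Tbc1d4* −0.57 (adjusted p from limma = 0.110) and nuclear-sum scaling −0.56 (adjusted p = 0.221).

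Of the *Tbc1d4* sum, 68.1% at PN21 and 53.1% at PN98 came from *Tbc1d4-208*, which is annotated with a retained intron rather than as coding. It was measured at 13.0, 22.4, 22.7 and 13.2 FPKM at PN21. At the later age the values were 12.4, 6.35, 4.44 and 7.51 FPKM, all below the PN21 mice, with m35 just below them. The full-length coding transcript *Tbc1d4-209* of 1243 codons was measured at 4.64, 2.56, 3.36 and 1.53 FPKM at PN21 and 1.04, 2.23, 4.19 and 1.54 FPKM at PN98, and the ages overlapped. With protein-coding transcripts alone, a choice made after seeing the data, the log2 fold change of *Tbc1d4* was −0.16 and the adjusted p from limma was 0.795. The log2 ratio of *Tbc1d4* to its relative *Tbc1d1* within a mouse differed by −0.07 between the ages (exact permutation test, p = 0.857).

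**Figure D2:**
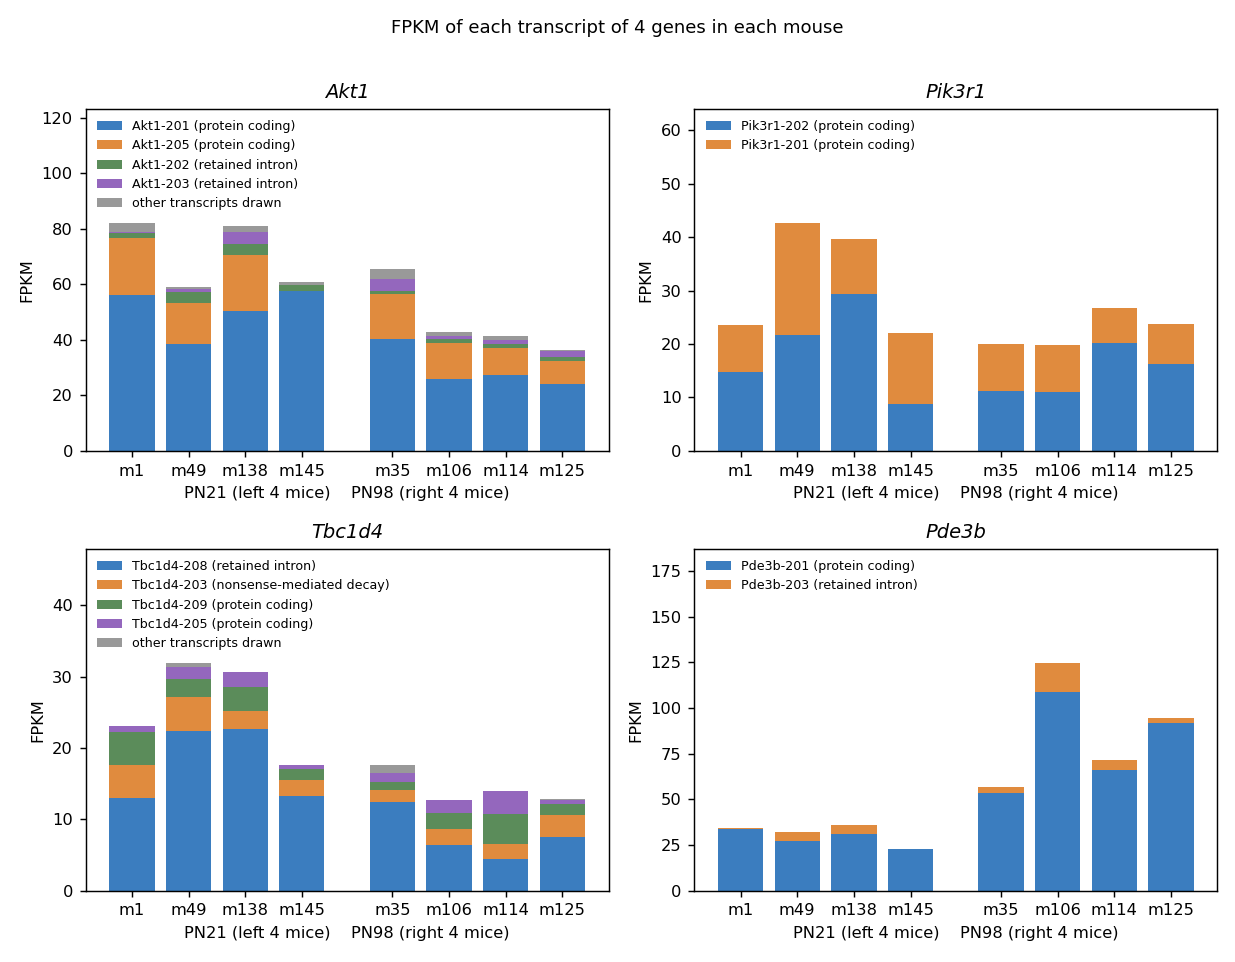
Stacked bars show the FPKM (y axis, from 0) of each transcript that reached 0.5 FPKM in any mouse, for 4 genes in the 4 PN21 mice (left) and the 4 PN98 mice (right), with the GENCODE transcript type in the legend. The retained-intron transcript of *Tbc1d4* holds 55.5% to 73.4% of the sum at PN21, and *Pde3b-201* holds at least 84.6% of the *Pde3b* sum in every mouse.

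*Slc2a4* (chromosome 11, 69942539 to 69948188, minus strand) encodes GLUT4, the transporter that insulin brings to the cell surface. It was measured at 111, 134, 67.3 and 79.6 FPKM at PN21, the highest mean of the 9 genes at that age. In the PN98 mice it reached 38.8, 83.7, 92.7 and 112 FPKM in m35, m106, m114 and m125. The ages overlapped in 3 of the 4 PN98 mice, and m35 lay below every other mouse. Mean levels were 98.0 ± 30.2 FPKM (SD, n = 4) at the earlier age and 81.9 ± 31.1 FPKM (SD, n = 4) at the later. The log2 fold change was −0.30 (SE 0.36, 95% interval −1.13 to 0.52, adjusted p from limma = 0.593). It was −0.07 after median-ratio scaling, −0.06 after nuclear-sum scaling and 0.016 without m35.

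The coding transcript *Slc2a4-201* of 509 codons held 92.4% to 95.5% of the *Slc2a4* sum in every mouse. Relative to the basal transporter gene *Slc2a1*, the log2 ratio of *Slc2a4* averaged 3.57 ± 0.63 (SD, n = 4 mice) at PN21 against 3.94 ± 1.17 (SD, n = 4 mice) at PN98 (exact permutation test, p = 0.6, adjusted 0.686). Relative to *Adipoq*, which encodes the adipocyte hormone adiponectin, the log2 ratio of *Slc2a4* was −3.49, −3.25, −3.58 and −3.56 at PN21. It was −6.08, −4.89, −5.28 and −4.61 at PN98, below every PN21 mouse in 4 of 4 mice. The difference was −1.75 (two-sided exact permutation test, p = 0.0286, the smallest value this test can give, adjusted over the 8 ratios 0.152). With 8 ratios, one that alone reaches this smallest p cannot have an adjusted p under 0.05, so the adjusted value does not weigh the separation. *Adipoq* itself rose by 1.45 on the log2 scale (SE 0.21, adjusted p from limma = 0.0111).

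The genes whose levels followed *Slc2a4* most closely were found by the root mean square difference of log2(FPKM + 1), each gene centred on its mean over the 8 mice. The closest was *Pgd*, which encodes 6-phosphogluconate dehydrogenase of the pentose phosphate pathway, with a difference of 0.09. *Pgd* was measured at 290, 391, 175 and 189 FPKM at PN21 and 102, 226, 227 and 312 FPKM at PN98, lowest in m35 like *Slc2a4*. The next were *Coq7*, an enzyme of ubiquinone synthesis, and *1110018N20Rik*, each with a difference of 0.16.

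*Pde3b* (chromosome 7, 114415281 to 114539251, plus strand) encodes the phosphodiesterase that Akt activates in the antilipolytic branch. It was measured at 34.2, 32.1, 36.1 and 23.0 FPKM at PN21. At PN98 it was measured at 57.0, 125.01, 71.4 and 94.6 FPKM. All PN98 mice were above all PN21 mice, with m35 lowest among them. The means were 31.3 ± 5.82 FPKM (SD, n = 4) and 87.0 ± 29.7 FPKM (SD, n = 4). Between the ages the log2 fold change was 1.40 (SE 0.27, 95% interval 0.79 to 2.02), 2.64-fold on the log2(FPKM + 1) scale and place 289 of 16073 from the highest, with an adjusted p of 0.0261 from limma.

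After median-ratio scaling the log2 fold change of *Pde3b* was 1.63 (adjusted p from limma = 0.0256), and with nuclear-sum scaling it was 1.64 (adjusted p = 0.0341). Leaving out m35 gave an adjusted p of 0.0109 from limma, and leaving out any other mouse (m1, m49, m138, m145, m106, m114 or m125) gave values between 0.0624 and 0.0720, with log2 fold changes between 1.21 and 1.48. White adipocyte markers were higher in all 8 means at PN98 beside this gene, and their part in the rise was not tested. Within a mouse the log2 ratio of *Pde3b* to *Lipe*, the hormone-sensitive lipase gene, was −3.79, −3.41, −3.14 and −3.83 at PN21. It was −3.18, −2.57, −3.56 and −3.19 at PN98, where m35, m114 and m125 lay inside the PN21 range (difference 0.42, exact permutation test, p = 0.2, adjusted 0.32).

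Among the 3 genes with the profile most like that of *Pde3b* over the 8 mice were *Pik3cb*, a catalytic subunit of phosphoinositide 3-kinase, with a root mean square difference of 0.18, and *Tgoln1*, a protein of the trans-Golgi network, with 0.20. *Tgoln1* has a close paralog, so that its value is uncertain.

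**Figure D3:**
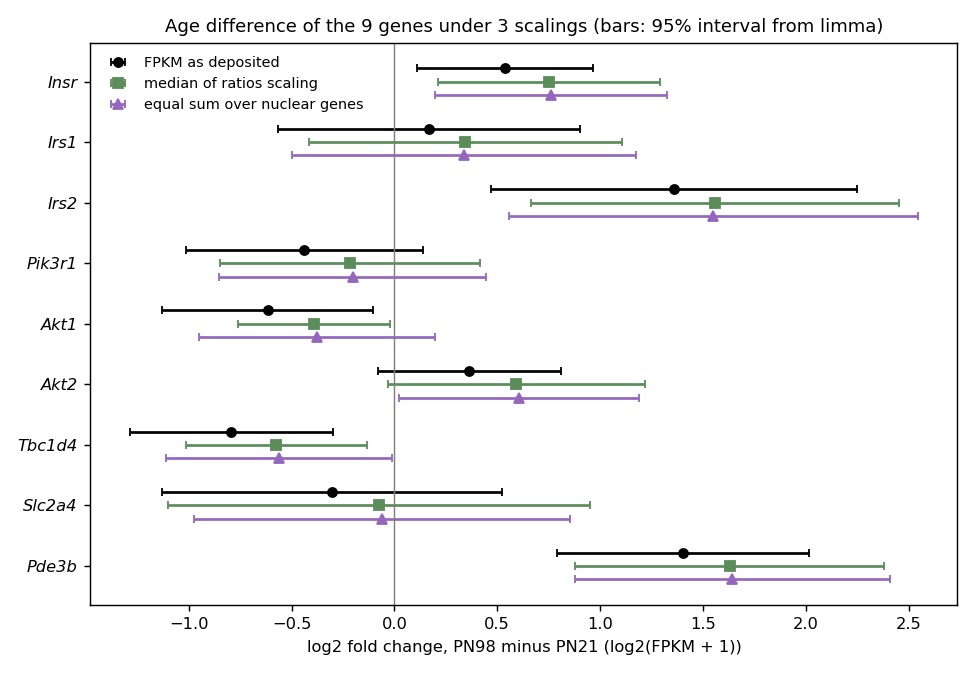
Points show the log2 fold change from PN21 to PN98 (x axis, on log2(FPKM + 1)) of the 9 genes with 95% intervals from limma, for unscaled FPKM (black circles), and after median-ratio (green squares) and nuclear-sum scaling (purple triangles). The intervals of *Insr*, *Irs2* and *Pde3b* lie above 0 and that of *Tbc1d4* below 0 under all 3, and these intervals are not adjusted for the number of genes.

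At PN21 the order of the mean levels per length was *Slc2a4*, *Akt2*, *Akt1*, *Pik3r1*, *Pde3b*, *Tbc1d4*, *Insr*, *Irs2* and *Irs1*. Ranges of neighbours in this order overlapped, other than between *Akt1* and *Pik3r1* and between *Tbc1d4* and *Insr*. At PN98 the order was *Akt2*, *Pde3b*, *Slc2a4*, *Akt1*, *Pik3r1*, *Tbc1d4*, *Insr*, *Irs2* and *Irs1*. Here neighbours did not overlap between *Akt1* and *Pik3r1*, *Pik3r1* and *Tbc1d4*, and *Irs2* and *Irs1*. *Pde3b* moved from the fifth place to the second, with a mean above that of *Slc2a4* at PN98 and ranges that overlapped.

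In the fit of single transcripts, 20 transcripts of the 9 genes passed the filter (above 0 FPKM in every mouse and a mean above 2 at either age). None had an adjusted p under 0.05 from limma, and 7 had an unadjusted p under 0.05, 4 higher and 3 lower at PN98. Of all 23116 transcripts tested, 1.32% had an adjusted p under 0.05 and 21.7% an unadjusted p under 0.05. The lowest adjusted p was that of *Pde3b-201*, 0.0544, with a log2 fold change of 1.44 on log2(FPKM). It was measured at 33.6, 27.2, 31.0 and 23.0 FPKM at PN21 and 53.7, 109, 66.1 and 91.7 FPKM at PN98.

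The 9 genes were set beside 104 other genes of the pathway, in 6 lists by role, of which 96 passed the filter. Of the 96, 6 passed the test of age higher at PN98 and 1 lower, against 2.35% and 2.94% of all genes tested. The split was 7 higher and 9 lower without m35, where 690 and 2889 of all genes tested were called. It was 10 higher and 9 lower with array weights, where 1150 and 3484 of all genes tested were called. The median log2 fold change of the 96 was −0.01, against −0.21 over all genes tested. The same shares and median over all genes tested apply to the counts of each of the 6 lists below. In 15 of the 96 genes the ages did not overlap, against 16.0% of all genes tested.

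**Figure D4:**
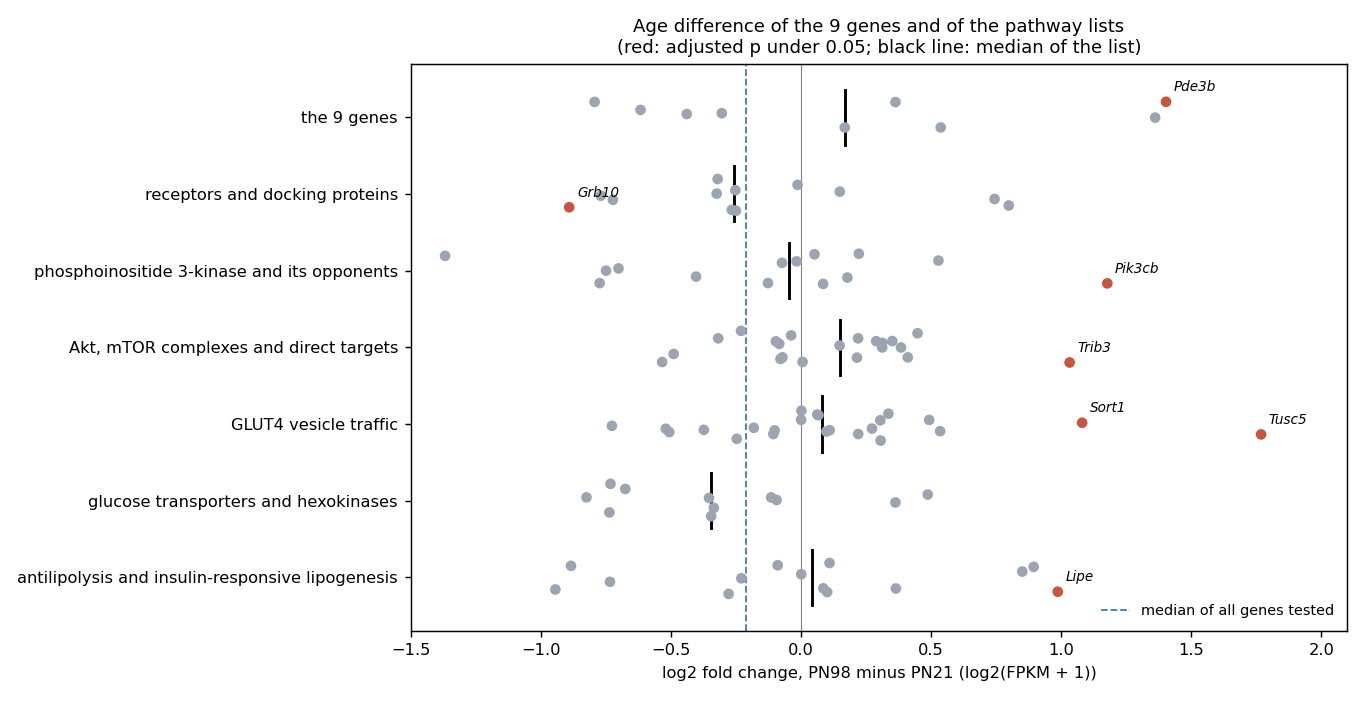
Each point is the log2 fold change from PN21 to PN98 (x axis, on log2(FPKM + 1)) of 1 gene, in rows for the 9 genes and the 6 lists, red and named where the adjusted p was under 0.05, with the median of the row as a black line and the median of all genes tested, −0.21, as a dashed line. The list of GLUT4 vesicle traffic, drawn without 1 of its genes, holds 2 red points, both to the right of 0, and the list of glucose transporters and hexokinases none.

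Among 14 receptors and docking proteins, of which 12 were tested, none was called higher and 1 lower (median log2 fold change −0.26). This was *Grb10*, an adaptor that binds the insulin receptor and restrains its signal, measured at 16.5 to 20.6 FPKM at PN21 and 8.32 to 11.1 FPKM at PN98. The change was −0.89 on the log2 scale (SE 0.16, adjusted p from limma = 0.0213), and its adjusted p was 0.0906 with nuclear-sum scaling. The log2 ratio of *Insr* to the related receptor gene *Igf1r* within a mouse was 1.95, 2.45, 1.71 and 1.96 at PN21 and 2.35, 3.27, 2.80 and 2.80 at PN98, with m35 inside the PN21 range (difference 0.79, exact permutation test, p = 0.0571, adjusted 0.152).

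Among 14 genes of phosphoinositide 3-kinase and its opponents, all tested, 1 was called higher and none lower (median −0.04). *Pik3cb*, which encodes the catalytic subunit p110β, was measured at 5.41, 6.41, 5.84 and 3.25 FPKM at PN21 and 8.54, 16.6, 11.6 and 16.03 FPKM at PN98. It rose by 1.18 on the log2 scale (SE 0.26, adjusted p from limma = 0.0421), and the ages did not overlap.

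Among 23 genes of Akt, the mTOR complexes and direct targets, of which 21 were tested, 1 was called higher and none lower (median 0.15). *Trib3*, a pseudokinase that binds Akt, was measured at 2.04 to 3.04 FPKM at PN21 and 4.07 to 8.30 FPKM at PN98. The change was 1.03 on the log2 scale (SE 0.22, adjusted p from limma = 0.0356).

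Among 24 genes of GLUT4 vesicle traffic, all tested, 3 were called higher and none lower (median 0.08). Of all genes tested, 2.35% were called higher and 2.94% lower, with a median of −0.21. *Tusc5*, also named *Trarg1*, encodes a membrane protein of GLUT4 vesicles, and was measured at 62.7, 41.2, 48.6 and 55.2 FPKM at PN21. PN98 values were 132.9, 227, 144.5 and 226 FPKM, above all PN21 mice by a wide margin. The change was 1.77 on the log2 scale (SE 0.24, adjusted p from limma = 0.00840). *Sort1*, which encodes sortilin, a sorting receptor of these vesicles, rose by 1.08 on the log2 scale (SE 0.21, adjusted p = 0.0289 from limma). *Slc2a4* itself, whose product these vesicles carry, did not pass the test, and the difference between *Tusc5* or *Sort1* and *Slc2a4* was not tested.

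Among 14 glucose transporters and hexokinases, of which 11 were tested, none passed the test from limma in either direction (median −0.35). The lowest unadjusted p belonged to *Slc2a1*, the basal transporter GLUT1, measured at 7.03, 5.70, 8.17 and 7.56 FPKM at PN21 and 7.23, 3.71, 3.84 and 2.46 FPKM at PN98 (log2 fold change −0.68, adjusted p = 0.154), followed by *Slc2a8*, the transporter GLUT8 (0.36, adjusted p = 0.157). Without m35, *Slc2a1* had a log2 fold change of −0.91 and an adjusted p of 0.0197 from limma, against −0.49 and 0.275 without m125, −0.49 and 0.161 after median-ratio scaling, and −0.48 and 0.309 after nuclear-sum scaling.

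Among 15 genes of antilipolysis and insulin-responsive lipogenesis, of which 14 were tested, 1 was called higher and none lower (median 0.04). *Lipe*, the lipase that the *Pde3b* branch restrains, was measured at 487, 349, 326 and 341 FPKM at PN21 and 524, 748, 856 and 872 FPKM at PN98. It rose by 0.99 on the log2 scale (SE 0.22, adjusted p from limma = 0.0421). Of the 7 genes of the lists that passed the test, *Tusc5* alone did so in all 8 fits that each left out 1 mouse, where its highest adjusted p was 0.0371. Beside the fit without m35, in which all 7 passed, *Grb10* passed without m145, m114 or m125, *Sort1* without m1 and *Trib3* without m114, and no other such fit gave a call for these 3 genes, *Pik3cb* or *Lipe*. The highest adjusted p among the fits without 1 mouse was 0.0757 for *Grb10*, 0.0978 for *Sort1*, 0.112 for *Trib3*, 0.120 for *Lipe* and 0.124 for *Pik3cb*.

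**Figure D5:**
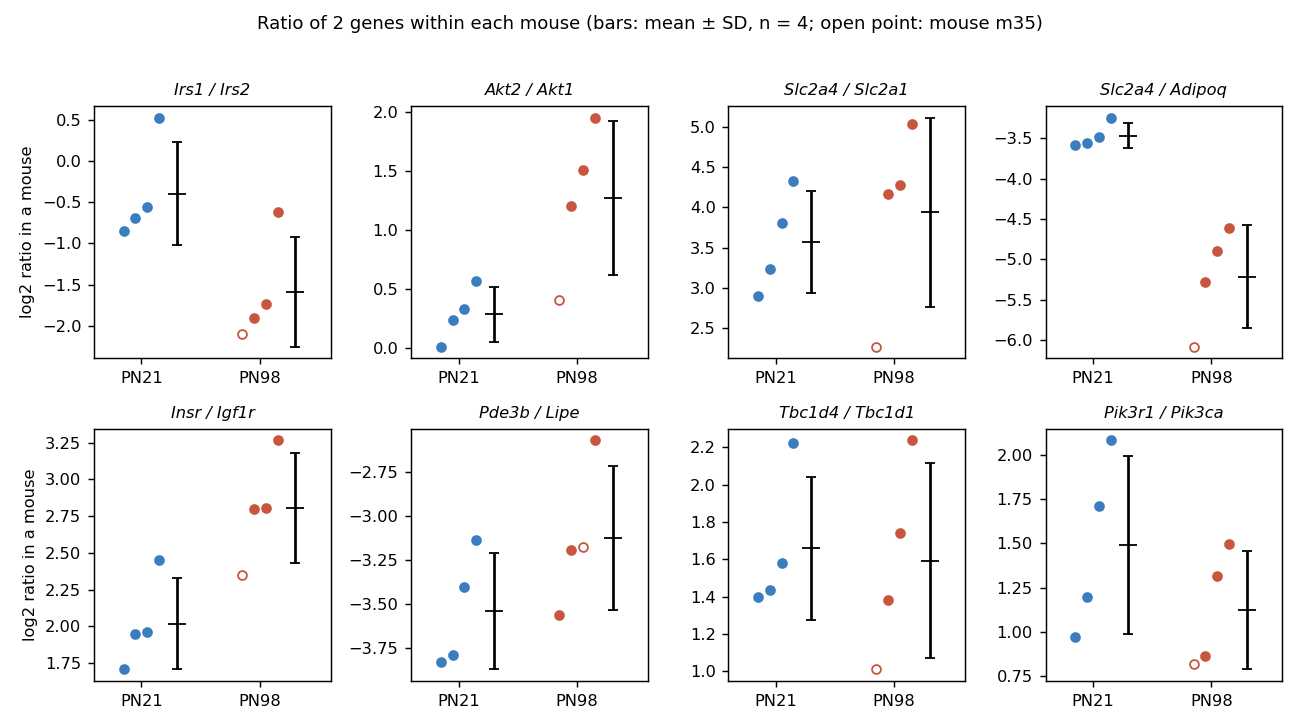
Each panel plots the log2 ratio of 2 genes within a mouse, each with 1 FPKM added (y axis, its own scale in each panel), for the 4 PN21 mice (blue) and the 4 PN98 mice (red) with the mean ± SD, and mouse m35 is drawn open. The ages do not overlap in the ratio of *Slc2a4* to *Adipoq*, while m35 lies inside the PN21 range in the ratios of *Akt2* to *Akt1* and *Insr* to *Igf1r*.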

How the data were processed

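ING WAT of 8 mice (4 at PN21, 4 at PN98) gave poly(A) RNA libraries from a directional kit, read in pairs. Per the labels and the study's methods, the authors used CASAVA 1.8.2, mapped to mm10 with STAR 2.3.0 and quantified transcripts with Cufflinks 2.1.1; whether strand was used in counting is not given in the sources used here. The deposited table gives 1 FPKM value per transcript and mouse, and many values had lost their decimal mark. Other columns of per-sample values served only to check the restored decimals. Columns of the authors' own comparison (log2 fold changes, p-values, ratios) were not used.

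Decimal marks were restored from the SD, average and score deposited for each transcript, which cover 10 samples, 2 of them not analysed here. A single reading was found for 40421 of 40506 transcripts with a lost mark, the other 85 were left out, and 5005 of 5005 that also stand in a deposited table with intact decimals were equal in all 8 mice. Transcripts were assigned to genes by GENCODE vM21 (GRCm38), since the gene column lists *Insr*, *Irs1*, *Irs2* and the main *Pde3b* transcript together with other genes; those that overlap could share reads.

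FPKM was summed per gene and log2(FPKM + 1) compared with limma 3.58.1 in R 4.3.3 for genes with a mean of at least 1 FPKM, and log2(FPKM) per transcript, with the study's FPKM filters. p-values were adjusted by Benjamini-Hochberg, with 0.05 as threshold. The 8 ratios were tested by the exact permutation test over 70 splits (scipy), whose smallest p is 0.0286. A ratio that alone reached this p could not pass the threshold after adjustment. The fit was tested on simulated data. The members and lists were chosen with earlier results of these data known. Named in the text were all members, the genes of each list with an adjusted p under 0.05 (at most 5, or the 2 with the lowest p), and the 3 genes most alike to *Slc2a4* and to each member called; 2 of these genes are not reported here, though counts and medians include them. Alternatives were median-ratio scaling, equal sums over nuclear genes, pseudocount 0.1, no filter, array weights, limma's trend, other rules for transcripts, and leaving out each mouse. Depth is unknown, so no counting error is given.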

Additional observations from a re-analysis of the deposited data

How the results depend on the processing

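With 3 PN98 or 3 PN21 mice in place of 4, fewer samples were left, and the number of the 9 genes with an adjusted p under 0.05, 1 with all mice, ran from 0 to 4; it was 4 without m35 (*Akt1*, *Insr*, *Pde3b* and *Tbc1d4*), and 0 without any other mouse. It was 2 with median-ratio scaling (*Irs2* and *Pde3b*), 5 with array weights (*Akt1*, *Insr*, *Irs2*, *Pde3b* and *Tbc1d4*) and 0 with transcripts listed under 1 gene symbol only, which left out the main *Pde3b* transcript and all of *Insr*, *Irs1* and *Irs2*. For the genes of the lists, 7 with all mice, the number was 4 with pseudocount 0.1, 4 with no filter, 19 with array weights and 1 to 16 without 1 mouse (16 without m35, 1 to 3 without any other). For transcripts of the 9 genes, 0 with all mice, it was 1 when zeros were kept with log2(FPKM + 1) and 0 to 3 without 1 mouse (3 without m35, in *Akt1*, *Pde3b* and *Tbc1d4*). The cause of these changes was not tested. Over all genes array weights called 4634, against 851, and the fits without 1 mouse 190 (without m106) to 3579 (without m35). Median-ratio scaling called 1221 of all genes, pseudocount 0.1 called 730, and no filter 1002 of 27437. Transcripts listed under 1 gene symbol only gave 502 of 9507. Counts over all transcripts in the alternative fits are not given, so the transcript counts above have no share beside them. The sign changed for *Irs1* without m145 (−0.044) and m114 (−0.061; range without 1 mouse −0.061 to 0.34), for *Slc2a4* without m35 (0.016; range −0.49 to 0.016) and for the ratio of *Tbc1d4* to *Tbc1d1* with pseudocount 0.1 (0.043) and without m49 (0.12), m35 (0.13) and m106 (0.0037; range −0.28 to 0.13). With 7 mice the exact test of a ratio cannot give a p below 0.0571, so those fits say nothing about its calls. No transcript of the 9 genes had more than 1 reading of its decimals, so that alternative was not run. No paired analysis was possible because the mice of the ages are different animals, each sampled at a single age. Of the 34 groups of 4 values examined with Dixon's test for a value far from the others, none had one. This test sets the gap beside an extreme value against the range of its group. With only 4 values it finds none but a very distant one, so its result does not show that all mice were alike. Mouse m35 stood apart in the counts over all genes, 3579 without it against 851 with all mice.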
